A study of Homo sapiens with 8 samples.

Results

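The genes described here encode the machinery that licenses replication origins: the origin recognition subunit ORC1, the loaders CDC6 and CDT1, the 6 subunits of the replicative helicase (MCM2, MCM3, MCM4, MCM5, MCM6 and MCM7) and the initiation factor MCM10. They were chosen by gene symbol, with earlier results of these data known. They make up 10 of the 36474 genes counted and 10 of the 21071 genes tested. RNA-Seq was performed on LNCaP cells, an established androgen-responsive line from a metastatic prostate carcinoma. All cells were first kept without serum and calcium for between 6 and 12 h and were labelled as treated with recombinant ASPN (asporin, a secreted matrix protein of the tumor stroma) at 100 ng/mL, with RNA taken at 0 h (2 libraries), 12 h (3 libraries) or 24 h (3 libraries). The comparisons ask how transcript levels moved with time after ASPN was added. No library kept for 12 or 24 h without ASPN was analysed here, so ASPN and time in the medium cannot be told apart.

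In G1 phase, the origin recognition complex binds DNA, CDC6 joins it, and CDT1 brings the MCM2 to MCM7 ring, which is loaded in an inactive form around the double helix. In S phase the ring is activated by CDC45 and the GINS complex, with MCM10 helping at the last step, and relicensing is prevented as CDT1, CDC6 and ORC1 are degraded, exported or, for CDT1, bound by geminin. Transcription of many of these genes is driven by E2F factors at the G1/S transition. MCM proteins are widely used as markers of cells that have entered the cycle, in prostate cancer among other tissues.

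Library totals were between 73406825 and 96962135 counts, and the 10 genes had between 698 and 12392 counts in each library, so that counting error alone was at most 3.79% of a value. The libraries expressed the prostate luminal markers at a summed 4857 to 5600 CPM (each gene's reads relative to its library total, with totals normalized by TMM). This sum was 4857 to 4964 CPM at 0 h, 5414 to 5451 CPM at 12 h and 5412 to 5600 CPM at 24 h, so it was higher at both later times. Of these 10 markers, 6 rose at 12 h, beside 4.85% of all genes tested. At 24 h, 8 rose and 1 fell, beside 7.82% and 8.49% of all genes. The part of these markers in the results below was not tested. Leukocyte markers summed to at most 0.102 CPM and basal markers to at most 0.229 CPM. Of the basal markers 2 of 3, and of the fibroblast markers 5 of 6, were among the genes counted (KRT5 and COL1A2 were not). Fibroblast markers, mostly COL1A1, summed to 22.2 to 22.7 CPM at 0 h, 21.6 to 23.8 CPM at 12 h and 21.2 to 21.9 CPM at 24 h. Endothelial markers, nearly all VWF, summed to 14.8 to 17.3 CPM at 0 h and 11.2 to 13.3 CPM at 24 h, and VWF fell by 0.38 ± 0.085 (log2, SE) at 24 h, with an adjusted p of 0.00175. The part of these markers was not tested either. The share of mitochondrial counts was 6.20% to 7.32%.

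Promoter sequences are shown for a set of members that moved differently in the data described below: MCM3 and MCM6 rose, MCM10 rose most, and CDC6 did not pass the test. Each is the RefSeq window on GRCh38.p14 from 250 bases before to 50 after the annotated start, written 5′ to 3′ on the strand of the gene. Capitals mark the E2F-type words TTTCCCGC, TTTCGCGC, TTTGCCGC and TTTGGCGC, searched on both strands, with overlapping matches merged. MCM3 lies at chr6:52284693-52284992 on the minus strand, MCM6 at chr2:135876394-135876693 on the minus strand, MCM10 at chr10:13161308-13161607 on the plus strand and CDC6 at chr17:40287629-40287928 on the plus strand.
MCM3: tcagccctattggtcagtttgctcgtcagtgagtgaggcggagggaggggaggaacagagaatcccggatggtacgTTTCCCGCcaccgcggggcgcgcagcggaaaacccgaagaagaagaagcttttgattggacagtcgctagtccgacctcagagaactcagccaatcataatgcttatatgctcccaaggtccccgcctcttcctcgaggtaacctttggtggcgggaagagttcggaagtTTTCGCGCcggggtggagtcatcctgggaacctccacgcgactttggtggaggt
MCM6: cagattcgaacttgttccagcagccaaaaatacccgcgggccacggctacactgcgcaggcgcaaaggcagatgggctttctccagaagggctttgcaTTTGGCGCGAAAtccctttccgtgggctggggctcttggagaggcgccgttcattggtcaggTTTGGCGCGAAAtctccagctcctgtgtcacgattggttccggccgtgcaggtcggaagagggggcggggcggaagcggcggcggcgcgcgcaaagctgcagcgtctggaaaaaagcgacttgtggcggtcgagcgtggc
MCM10: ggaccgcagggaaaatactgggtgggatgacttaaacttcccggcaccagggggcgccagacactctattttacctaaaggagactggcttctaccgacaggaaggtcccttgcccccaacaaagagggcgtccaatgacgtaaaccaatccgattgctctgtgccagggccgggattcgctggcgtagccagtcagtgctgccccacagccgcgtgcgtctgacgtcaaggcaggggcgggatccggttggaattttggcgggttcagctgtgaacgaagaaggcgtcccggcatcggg
CDC6: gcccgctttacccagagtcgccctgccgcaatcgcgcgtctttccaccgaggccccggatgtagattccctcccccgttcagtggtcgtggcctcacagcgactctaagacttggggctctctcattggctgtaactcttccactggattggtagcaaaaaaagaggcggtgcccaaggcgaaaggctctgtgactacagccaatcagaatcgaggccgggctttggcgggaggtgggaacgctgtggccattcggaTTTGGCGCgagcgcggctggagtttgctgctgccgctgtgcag

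MCM6 holds the stretch TTTGGCGCGAAA at 2 places, where TTTGGCGC and, on the other strand, TTTCGCGC overlap, MCM3 holds 2 separate words, CDC6 holds 1 word just past its start, and none of these words is in the MCM10 window. A window was given for 8 of the 10 genes, all but MCM4 and MCM5. MCM7 had several windows, of which only that at chr7:100101348-100101647 held E2F-type words. Members were counted by gene, if any window held the word, whereas the shares of all windows count each window. At least 1 E2F-type word was found in 6 of these 8 (MCM2, MCM3, MCM6, MCM7, CDC6 and CDT1), whereas 3.31% of all 35116 windows and 4.64% of the 17865 windows of tested genes held one. The word CCAAT, a common promoter element, was found in 6 of the 8 (MCM3, MCM6, MCM7, MCM10, CDC6 and ORC1), against 34.6% of all windows. These matches describe letters only. Other variants of the E2F-type words were not searched, so a window without a capital may still hold a similar sequence. The part of these words in the changes below was not tested.

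Transcripts of 9 of the 10 genes rose by 12 h and were still above 0 h at 24 h, by 1.24- to 1.65-fold at 12 h and by 1.17- to 1.97-fold at 24 h, and CDC6 passed the test at neither time. At 12 h, 9 of 10 passed an adjusted p of 0.05 with a higher level (edgeR quasi-likelihood test, Benjamini-Hochberg adjustment), beside 4.85% of all genes tested, and 3 of 10 (MCM4, MCM5 and MCM10) also rose at least 1.5-fold, beside 0.489% of all genes. At 24 h, 9 of 10 passed with a higher level, beside 7.82%, and 6 of 10 (MCM2, MCM3, MCM4, MCM5, MCM6 and MCM10) rose at least 1.5-fold, beside 1.1%. None of the 10 fell by this test. The median log2 change of the 10 genes was 0.51 at 12 h and 0.63 at 24 h, where the medians over all genes were -0.00069 and -0.0031. The 12 h and 24 h comparisons share the same 0 h libraries. In these bulk libraries, a change in the share of cells in S phase and a change in RNA per cell cannot be told apart.

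The 9 genes that rose had no overlap between the 0 h and the later libraries at either time, a separation seen upward in 17.3% of all genes at 12 h and in 21.5% at 24 h. Within the 0 h group, replicate 1 was below the unnumbered library in 10 of 10 genes, by a median log2 distance of 0.11 on either side of their mean. The share of all genes with this order was not computed. Without 0 h replicate 1, which leaves a single library at 0 h, the log2 changes of the 9 genes were smaller. They were 0.19 (CDT1) to 0.71 (MCM10) at 12 h and 0.0996 (CDT1) to 0.96 (MCM10) at 24 h. Only MCM10 at 12 h, and MCM4, MCM5, MCM6 and MCM10 at 24 h, were then at least 1.5-fold higher. Without the unnumbered 0 h library the changes were 0.40 (MCM7) to 0.80 (MCM5) at 12 h and 0.36 (CDT1) to 0.997 (MCM10) at 24 h. Without 12 h replicate 2, the genes called at 1.5-fold at 12 h were 2 (MCM5 and MCM10).

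**Figure D1:**
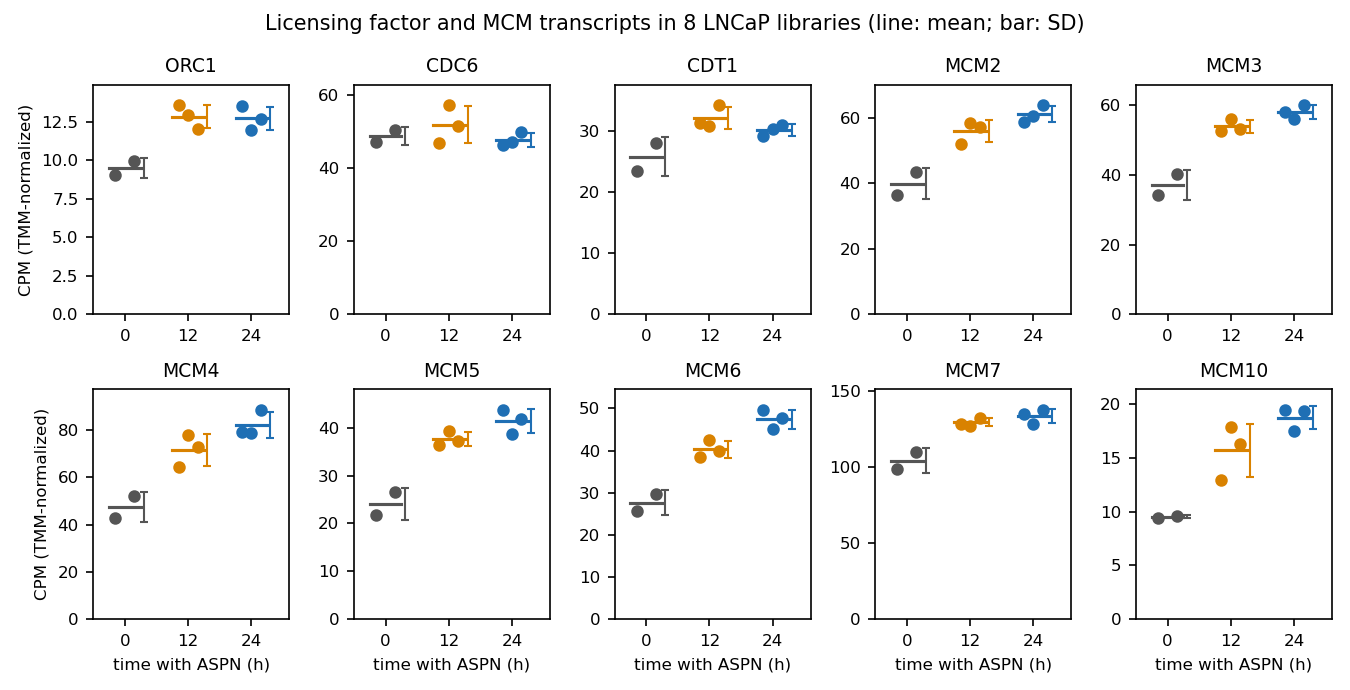
TMM-normalized CPM (vertical axes, each from 0) of each gene in the 8 libraries by time with ASPN in h, where points are libraries, horizontal lines group means and bars the SD (n = 2 at 0 h, n = 3 at 12 h and 24 h). For every gene but CDC6, all points at 12 h and 24 h lie above both points at 0 h.

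Of the origin recognition and loading factors, ORC1 and CDT1 rose and CDC6 did not pass. ORC1 (ENSG00000085840.13, GRCh38 chr1:52372829-52404423, minus strand), the largest ORC subunit and the one whose level varies through the cycle, was at 9.05 and 9.96 CPM at 0 h, at 13.6, 12.9 and 12.0 CPM at 12 h and at 13.5, 12.0 and 12.7 CPM at 24 h. All 6 later libraries were above both 0 h libraries, and the later groups overlapped each other. The log2 change was 0.43 ± 0.087 (SE; adjusted p = 0.00089) at 12 h and 0.42 ± 0.087 (adjusted p = 0.00069) at 24 h. Without 0 h replicate 1, which leaves a single library at 0 h, both changes were smaller, at 0.36 at 12 h and 0.35 at 24 h. The 12 h call depended on that library.

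CDC6 (ENSG00000094804.12, chr17:40287879-40304657, plus strand), the ATPase that joins ORC to load the helicase, was at 46.9 and 50.3 CPM at 0 h, at 46.9, 57.1 and 51.4 CPM at 12 h and at 46.1, 47.1 and 49.7 CPM at 24 h. The 3 groups overlapped. Its log2 change was 0.092 (95% interval -0.038 to 0.22, adjusted p = 0.418) at 12 h and -0.030 (-0.16 to 0.099, adjusted p = 0.826) at 24 h, so that both intervals lie below the 12 h and 24 h estimates of every other member. Its mean level at 0 h, 48.6 ± 2.40 CPM (SD, n = 2), differed from its mean at 24 h, 47.6 ± 1.87 CPM (SD, n = 3), by less than the spread between libraries.

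CDT1 (ENSG00000167513.9, chr16:88803789-88809258, plus strand), which delivers the MCM ring to the origin, was at 23.6 and 28.1 CPM at 0 h. It was at 31.3, 30.9 and 34.2 CPM at 12 h and at 29.2, 30.4 and 31.1 CPM at 24 h, where the lowest 24 h library was only slightly above the higher 0 h library. The log2 change was 0.32 ± 0.069 (SE; adjusted p = 0.00204) at 12 h and 0.23 ± 0.069 (adjusted p = 0.0203) at 24 h. These calls rested on single libraries: without 0 h replicate 1 the changes were 0.19 (adjusted p = 0.226) and 0.0996 (adjusted p = 0.558), without the unnumbered 0 h library the 24 h change was 0.36, and the 24 h call was also lost without 24 h replicate 2 (adjusted p = 0.0640) or 24 h replicate 3 (adjusted p = 0.0855).

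All 6 helicase subunits rose at both times. MCM2 (ENSG00000073111.14, chr3:127598410-127622436, plus strand), the subunit that also binds histones, was at 36.5 and 43.3 CPM at 0 h, at 52.0, 58.5 and 57.2 CPM at 12 h and at 58.8, 60.6 and 63.8 CPM at 24 h. Its 3 groups did not overlap. The log2 change was 0.49 ± 0.064 (SE; adjusted p = 2.90e-06) at 12 h and 0.62 ± 0.064 (adjusted p = 1.50e-08) at 24 h, and the latter passed 1.5-fold in all but 2 of the single-library omissions (0 h replicate 1 and 24 h replicate 3). The annotation places 1113 of its 4715 exon bases (23.6%) under a noncoding gene on the other strand, ENSG00000285600. That gene had 112 to 200 counts per library, where MCM2 had 3147 to 5859, and since the strand setting of the counting is not known, their reads may not be separated.

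MCM3 (ENSG00000112118.20, chr6:52264014-52284881, minus strand), which sits next to MCM5 in the ring, was at 34.1 and 40.2 CPM at 0 h, at 52.5, 55.9 and 53.3 CPM at 12 h and at 58.0, 56.0 and 60.0 CPM at 24 h. The groups did not overlap, though the 12 h and 24 h groups nearly met. The log2 change was 0.54 ± 0.061 (SE; adjusted p = 3.05e-07) at 12 h and 0.64 ± 0.061 (adjusted p = 2.20e-09) at 24 h. MCM5 (ENSG00000100297.16, chr22:35400134-35425431, plus strand), which with MCM2 forms the gate through which DNA enters the ring, was at 21.7 and 26.5 CPM at 0 h, at 36.5, 39.3 and 37.2 CPM at 12 h and at 43.7, 38.8 and 41.8 CPM at 24 h. Both later groups stood above 0 h and overlapped each other. Its log2 change was 0.65 ± 0.071 (SE; adjusted p = 1.89e-07) at 12 h and 0.78 ± 0.071 (adjusted p = 8.84e-10) at 24 h.

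MCM4, MCM6 and MCM7 form the catalytic core of the ring in biochemical assays, and all 3 rose. MCM4 (ENSG00000104738.18, chr8:47960185-47978160, plus strand) was at 43.0 and 52.0 CPM at 0 h, at 64.3, 77.9 and 72.9 CPM at 12 h and at 79.3, 78.8 and 88.5 CPM at 24 h. Its 3 groups did not overlap, and the log2 change was 0.60 ± 0.085 (SE; adjusted p = 0.000213) at 12 h and 0.79 ± 0.085 (adjusted p = 5.22e-06) at 24 h. MCM6 (ENSG00000076003.5, chr2:135839626-135876443, minus strand) was at 25.5 and 29.7 CPM at 0 h, at 38.5, 42.5 and 39.9 CPM at 12 h and at 49.6, 45.1 and 47.8 CPM at 24 h. Its 3 groups did not overlap either, and the log2 change was 0.55 ± 0.066 (SE; adjusted p = 8.21e-07) at 12 h and 0.78 ± 0.066 (adjusted p = 2.19e-10) at 24 h.

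MCM7 (ENSG00000166508.18, chr7:100092728-100101940, minus strand) had the highest counts of the 10 genes and the smallest fold change of the ring. It was at 98.4 and 109.7 CPM at 0 h, at 128.3, 127.0 and 132.1 CPM at 12 h and at 134.7, 128.1 and 137.1 CPM at 24 h. The log2 change was 0.31 ± 0.050 (SE; adjusted p = 5.26e-05) at 12 h and 0.36 ± 0.050 (adjusted p = 3.10e-06) at 24 h, with 95% intervals of 0.21 to 0.41 and 0.26 to 0.46. At 24 h this interval lies below those of the other 5 subunits, the lowest of which (MCM2) starts at 0.48. The difference between genes was not tested. MCM7 shares 392 exon bases (7.90% of its exons) with AP4M1 on the other strand, which had 1741 to 2452 counts. The microRNA genes MIR25, MIR93 and MIR106B lie within it, with at most 26, 10 and 12 counts in a library.

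MCM10 (ENSG00000065328.17, chr10:13161558-13211110, plus strand) is not a ring subunit but acts when the loaded helicase is switched on. It was at 9.42 and 9.60 CPM at 0 h, at 12.97, 17.8 and 16.3 CPM at 12 h and at 19.4, 17.5 and 19.3 CPM at 24 h. The 12 h libraries were spread more widely than any other group of the 10 genes, with a coefficient of variation of 15.9%, and 12 h replicate 1 was the lowest of the 3. The log2 change was 0.72 ± 0.097 (SE; adjusted p = 5.38e-06) at 12 h and 0.98 ± 0.097 (adjusted p = 9.56e-09) at 24 h, or 1.97-fold, the largest of the 10. This 24 h estimate stayed between 0.95 and 1.03 under 14 alternative settings.

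**Figure D2:**
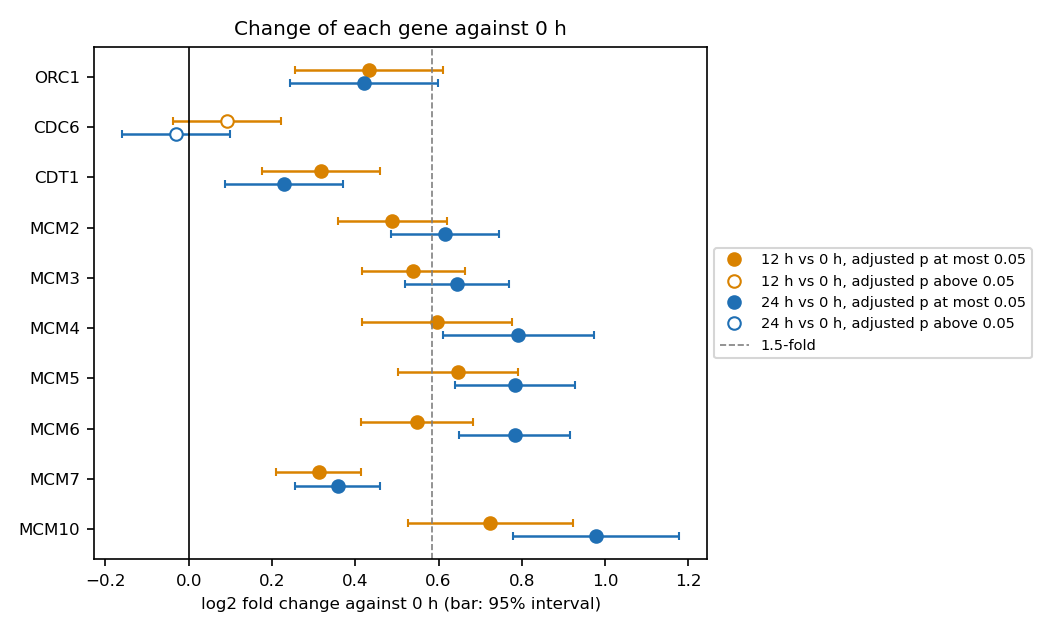
Log2 fold change against 0 h (horizontal axis) at 12 h and 24 h for each gene, with 95% intervals from the edgeR fit, filled points for an adjusted p of at most 0.05 and a dashed line at 1.5-fold. The CDC6 intervals span 0, and MCM10 at 24 h lies farthest to the right at 0.98.

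Most of the rise was in place by 12 h. Between 12 h and 24 h only MCM6 passed, with a log2 change of 0.23 ± 0.057 (SE; adjusted p = 0.0159), so 1 of 10 genes was higher, beside 1.12% of all genes tested. At 1.5-fold none was called, beside 0.0759% of all genes. At an unadjusted p of 0.05, MCM2, MCM4, MCM5, MCM6 and MCM10 were higher (5 of 10, beside 6.74% of all genes) and CDC6 was lower (1 of 10, beside 6.86%). DESeq2 also passed 1 of 10. The MCM6 call was lost without 12 h replicate 1 (adjusted p = 0.0558), 12 h replicate 3 (0.0896), 24 h replicate 1 (0.149) or 24 h replicate 3 (0.0906). Without 12 h replicate 1, CDC6 was the 1 gene that passed, and it fell by 0.19 (adjusted p = 0.0304). Without 12 h replicate 2, MCM4 (0.26, adjusted p = 0.0490) and MCM10 (0.36, adjusted p = 0.0116) passed beside MCM6. The libraries at 24 h lay above all those at 12 h for 4 of 10 genes (MCM2, MCM3, MCM4 and MCM6), beside 10.3% of all genes.

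The other members gave 12 h to 24 h changes that were positive for the ring and MCM10 and negative for ORC1 and the loaders. MCM10 changed by 0.25 (95% interval 0.086 to 0.42, adjusted p = 0.0994) and MCM4 by 0.20 (0.039 to 0.35, adjusted p = 0.221). MCM5, MCM2 and MCM3 changed by 0.14, 0.13 and 0.10 (adjusted p = 0.301, 0.297 and 0.388), and MCM7 by 0.045 (adjusted p = 0.728). ORC1 changed by -0.013 (adjusted p = 0.970), CDT1 by -0.090 (adjusted p = 0.569) and CDC6 by -0.12 (adjusted p = 0.329). None of these passed the test. In 9 of the 10 genes, 12 h replicate 1 lay below the mean of its group. The share of all genes with this order was not computed. Without this library, the lowest at 12 h for MCM2, MCM4 and MCM10 among others, the changes were 0.13 for MCM10, 0.12 for MCM4 and 0.071 for MCM2.

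The change over the second 12 h was set against that over the first within the same model, a contrast that uses the 12 h libraries in both terms. It was below 0 in all 10 genes, with a median of -0.40 on the log2 scale, and passed in 4 of 10, all lower: MCM5 at -0.51 (adjusted p = 0.00912), MCM3 at -0.44 (adjusted p = 0.0108), CDT1 at -0.41 (adjusted p = 0.0413) and MCM2 at -0.36 (adjusted p = 0.0476). Over all genes tested, 1.09% passed with a lower and 2.33% with any difference. The median over all genes was -0.0015, and the share of all genes below 0 was not computed. Among the G2 and M phase genes described below, 0 of 10 were above 0, the median was -0.27 and 1 passed lower. Of the 10 luminal markers, 4 passed lower and 1 higher. For the members, the size of the difference, and with it these calls, depended on the 0 h group. Without 0 h replicate 1, which leaves a single library at 0 h, it was -0.38 for MCM5, -0.33 for MCM3, -0.29 for CDT1 and -0.25 for MCM2. Without the unnumbered 0 h library it was -0.67, -0.57, -0.56 and -0.51. The contrast passed in 7 of 10 genes without 12 h replicate 1, where 267 of all 20907 genes passed. It passed in 2 of 10 (MCM3 and MCM5) without 12 h replicate 3, where 233 of all 20950 passed, or without any 1 of the 24 h libraries. With at least 2 libraries at each time, MCM3 and MCM5 kept their calls except in the test against a fold of 1.2 and under the 1.5-fold requirement. MCM2 and CDT1 each lost theirs without any 1 of the 24 h libraries.

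**Figure D3:**
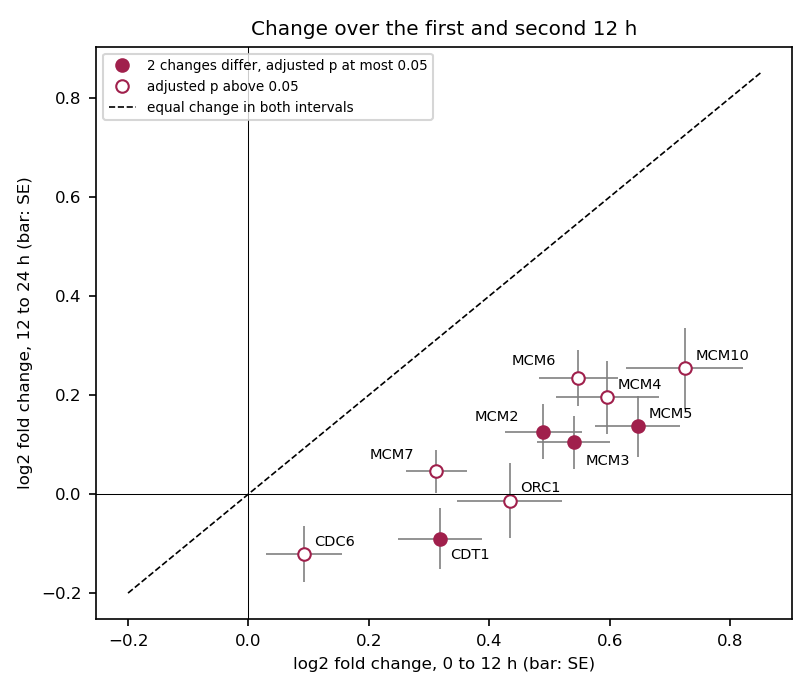
Log2 fold change from 0 to 12 h (horizontal axis) against that from 12 to 24 h (vertical axis), with SE bars, for the 10 genes, filled where the 2 changes differed at an adjusted p of at most 0.05. All 10 points lie below the dashed line of equal change, and ORC1, CDT1 and CDC6 lie below 0 on the vertical axis.

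Over the 8 libraries, the log2 level of the ring subunits and MCM10 followed the mean of the other 9 members closely, with Pearson r from 0.946 (MCM10) to 0.995 (MCM3). It was 0.895 for ORC1, 0.790 for CDT1 and 0.178 for CDC6. These values describe 8 points that fall into 3 times and share their depth. Of 12563 other genes with enough counts, those most like the mean of the members were PAK4 (r = 0.996), ZNF275 (r = 0.991), NUDC (r = 0.990), MAPK4 (r = 0.988) and MLLT6 (r = 0.987). Because they were picked in the same libraries, the direction of their changes was set by the choice, and the p-values below are no independent test. Their changes at 24 h were all below the median of the members, 0.63: PAK4 rose by 0.27 on the log2 scale at 24 h (adjusted p = 4.20e-05), MLLT6 by 0.40 (adjusted p = 7.60e-08) and NUDC by 0.21 (adjusted p = 0.00125), and ZNF275 (0.092, adjusted p = 0.283) and MAPK4 (0.38, adjusted p = 0.183) did not pass.

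Levels per length allow the ring subunits, which are present once each in the complex, to be set beside each other. In CPM per kb of annotated exon bases, the level at 0 h was 21.0 for MCM7, 10.2 for MCM3, 8.46 for MCM2, 6.68 for MCM6, 4.82 for MCM4 and 3.32 for MCM5. At 24 h the same order held, with levels of 26.9, 15.9, 12.9, 11.5, 8.34 and 5.70. The highest subunit was 6.32 times the lowest at 0 h, 5.02 times at 12 h and 4.72 times at 24 h, and without MCM7 the ratio was 3.07, 2.85 and 2.79. The order below MCM7 changed with the length used. With the length of the canonical transcript, an alternative chosen after seeing the data, MCM7 was still highest (42.2 CPM per kb at 0 h and 54.0 at 24 h). MCM3, MCM4 and MCM2 then stood at 12.1, 11.7 and 11.6 CPM per kb at 0 h, within their SDs of 1.39, 1.57 and 1.40 (n = 2), and MCM6 and MCM5 were lowest at 7.36 and 6.97, within SDs of 0.787 and 0.968. On that length the ratio without MCM7 was 1.74 at 0 h and 1.69 at 24 h. Per kb of exon bases, MCM10 was lowest of the 10 genes at 0 h (1.74), ORC1 was at 3.05, and CDC6 and CDT1 were at 9.16 and 9.36.

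**Figure D4:**
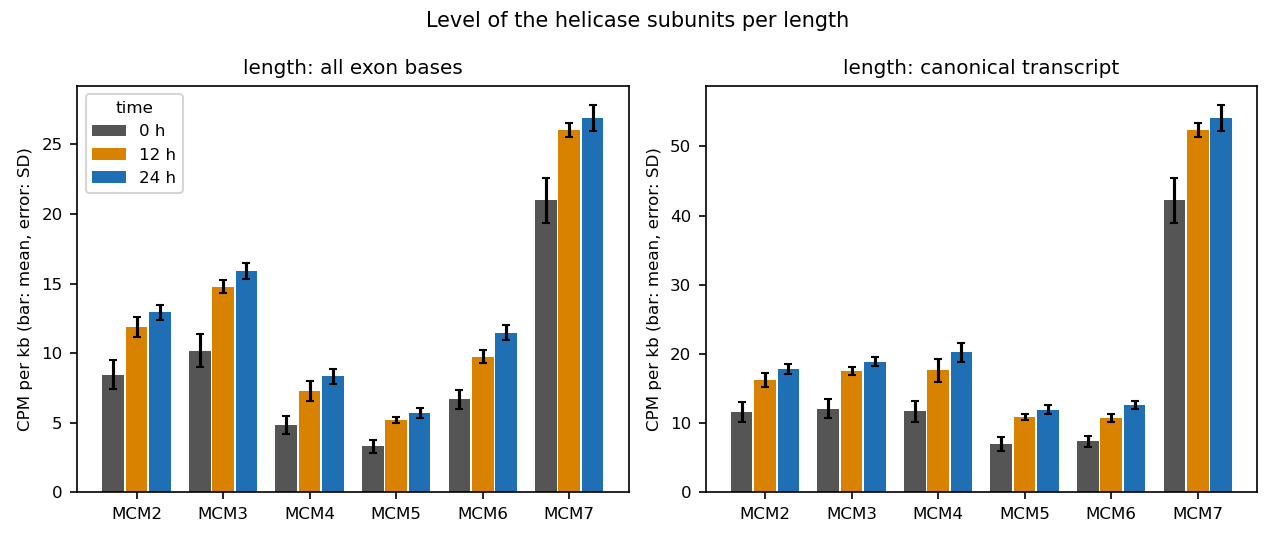
Mean CPM per kb (vertical axes from 0, error bars SD, n = 2 at 0 h and n = 3 at 12 h and 24 h) of the 6 ring subunits, divided by the length of all annotated exon bases (left) or of the canonical transcript (right). MCM7 is highest on both lengths, and the other 5 lie closer together on the right.

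Among the 10 genes, 4 start within 1000 bases of a gene on the other strand, and none of these neighbours passed the test. TPRA1, 143 bases from MCM2, changed by 0.16 at 12 h (adjusted p = 0.0569) and 0.15 at 24 h (adjusted p = 0.0727). PRKDC, the catalytic subunit of the DNA-dependent protein kinase, starts 7 bases from MCM4 and changed by 0.15 (adjusted p = 0.425) and -0.10 (adjusted p = 0.591). AP4M1, 391 bases from MCM7, changed by 0.044 and 0.061 (adjusted p = 0.774 and 0.638), and PRPF38A, 179 bases from ORC1, by -0.0078 and -0.038 (adjusted p = 0.950 and 0.668).

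The partners of the 10 genes moved less uniformly. Of 9 other ORC subunits and loading partners, 1 rose at 12 h and 2 rose at 24 h, with list medians of 0.052 and 0.10 on the log2 scale. Over all genes tested, 4.85% rose at 12 h and 7.82% at 24 h. ORC6, the smallest ORC subunit, was at 9.95 and 9.85 CPM at 0 h, at 11.9, 12.3 and 12.4 CPM at 12 h and at 13.2, 13.1 and 14.0 CPM at 24 h, so that it rose by 0.30 ± 0.081 (log2, SE; adjusted p = 0.0131) and 0.44 ± 0.081 (adjusted p = 0.000163). GMNN, which encodes geminin, the inhibitor of CDT1, changed by 0.16 (adjusted p = 0.134) at 12 h and rose by 0.28 ± 0.067 (adjusted p = 0.00319) at 24 h. ORC2, ORC3, ORC4 and ORC5 did not pass against 0 h, with changes between -0.15 and 0.10, so that within the origin recognition complex ORC1 and ORC6 were the subunits that rose. Between 12 h and 24 h, ORC4 was higher by 0.19 (adjusted p = 0.0343), named after its value was seen.

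Of 14 factors that complete or fire the helicase (CDC45, GINS and the kinases and adaptors of origin firing), 5 rose at 12 h and 5 at 24 h, and none fell. The shares of all genes that rose were 4.85% and 7.82%. The list medians were 0.17 and 0.099. GINS2, a subunit of the GINS complex, was at 6.82 and 8.10 CPM at 0 h, at 11.4, 14.0 and 12.6 CPM at 12 h and at 12.1, 11.6 and 12.4 CPM at 24 h. It rose by 0.77 ± 0.097 (SE; adjusted p = 1.70e-06) at 12 h and 0.69 ± 0.097 (adjusted p = 3.09e-06) at 24 h, so that its 12 h estimate was above that of MCM10. Its change over the second 12 h was below that over the first by a log2 difference of -0.85 (adjusted p = 0.00160). CDC7, the kinase that phosphorylates the MCM ring, changed by 0.17 (adjusted p = 0.207) at 12 h and rose by 0.36 ± 0.081 (adjusted p = 0.00172) at 24 h. The others that rose, named after their values were seen, were GINS4 and TICRR at 12 h, GINS1 at 24 h, and RECQL4 and WDHD1 at both times, by 0.22 to 0.37. Between 12 h and 24 h, TICRR changed by -0.22 (adjusted p = 0.112), GINS4 by -0.11 (adjusted p = 0.607) and GINS1 by 0.11 (adjusted p = 0.475).

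Of 10 genes for the turnover and control of CDT1, CDC6 and ORC1, DTL alone rose, beside 4.85% of all genes at 12 h and 7.82% at 24 h. DTL, the substrate receptor that targets CDT1 for degradation in S phase, was at 10.7 and 12.7 CPM at 0 h, at 16.1, 19.4 and 16.3 CPM at 12 h and at 19.9, 19.4 and 20.9 CPM at 24 h, and it rose by 0.56 ± 0.087 (log2, SE; adjusted p = 3.04e-05) and 0.78 ± 0.087 (adjusted p = 5.43e-08). The scaffold CUL4B of the same ligase fell by 0.17 at 12 h (adjusted p = 0.0204) and by 0.19 at 24 h (adjusted p = 0.00799). Its adaptor DDB1, named after its value was seen, fell by 0.14 at 24 h (adjusted p = 0.0222). Falls were found in 1422 of all 21071 genes tested at 12 h and in 8.49% of them at 24 h. The list medians were -0.010 and -0.021.

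Of 5 other genes with MCM in their symbol, 1 rose and 1 fell at 24 h, and the median was -0.049. Among all genes tested, 7.82% rose and 8.49% fell at 24 h. MCM8 and MCM9, which form a separate helicase used in homologous recombination, changed at 24 h by 0.12 (adjusted p = 0.512) and -0.049 (adjusted p = 0.788), and MCMDC2 by -0.087 (adjusted p = 0.678). At 12 h the 5 genes of this kind had adjusted p between 0.121 and 0.517. MCM3AP, which encodes the export factor GANP, fell by 0.21 at 24 h (adjusted p = 0.00260), and the antisense transcript MCM3AP-AS1 rose by 0.25 (adjusted p = 0.0170). Since the strand setting is not known, reads of this pair may not be separated.

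Genes of G2 and M phase were taken for comparison. At 24 h, 6 of 10 fell, beside 8.49% of all genes, and none rose, with a list median of -0.19. At 12 h 1 of 10 rose, beside 4.85% of all genes, and the list median was 0.026. This gene was MKI67, higher by 0.18 (adjusted p = 0.0233; named after its value was seen). UBE2C, which marks mitotic substrates for degradation, fell by 0.39 ± 0.059 (SE; adjusted p = 9.04e-06) and CCNB2, a mitotic cyclin, by 0.30 ± 0.054 (adjusted p = 0.000101) at 24 h. Between 12 h and 24 h, 9 of 10 fell, beside 1.61% of all genes.

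**Figure D5:**
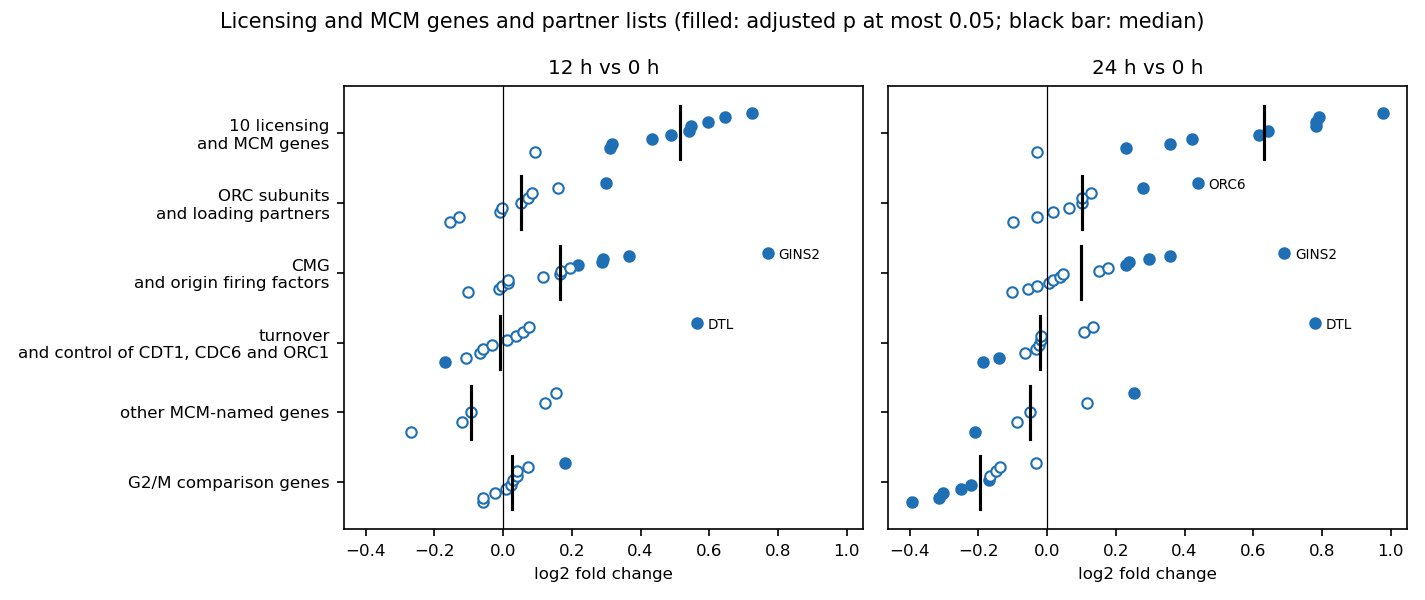
Log2 fold change against 0 h (horizontal axes) at 12 h (left) and 24 h (right) for the 10 genes and 5 lists of related genes, where each point is a gene, filled points have an adjusted p of at most 0.05 and black bars are list medians. The 10 genes have medians of 0.51 and 0.63, and the G2 and M phase list has a median of -0.19 at 24 h.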

How the data were processed

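RNA-Seq of 8 LNCaP libraries was analysed from the deposited table of raw read counts per gene. Per the paper's methods, the authors removed adapters, aligned reads to GRCh38.p13 with STAR and a GENCODE annotation, and made the counts with featureCounts. Strand, pairing and multi-mapping settings are not given in the sources used here. Libraries were grouped by the time in the column names. One 0 h column carries a number that no 0 h label has, so it was used without a replicate number. The paper reports that a time 0 replicate of LNCaP failed its quality control and was left out, without giving its number. Labels call the replicates biological and the study describes wells plated together, so p-values measure the spread between these libraries, which may be technical. No within-group pair was as alike as sampling noise alone would make it.

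All 36474 genes entered edgeR 4.0.16 (R 4.3.3): filterByExpr (21071 kept), TMM normalization, 1 coefficient per time over all 8 libraries, and the robust quasi-likelihood F test with Benjamini-Hochberg adjustment over all genes tested. A gene passed at an adjusted p of at most 0.05 and was called where it also changed at least 1.5-fold. SE are of log2 fold changes. CPM are TMM-normalized. Intervals cover 95%. Code was tested on simulated data. The members, picked by symbol, and the lists were chosen with earlier results of these data known. Named were all members, the 2 genes of smallest p at 24 h in each list (all in lists of at most 5), genes starting within 1000 bases on the other strand or sharing exon bases, and the 5 genes most like the members. Lengths, overlaps and distances are from GENCODE 44, where MCM4 and MCM7 have another version of their identifier, and promoters from RefSeq. Same-numbered 12 h and 24 h libraries deviated from their group means with correlations of 0.10, 0.027 and 0.029, so numbers were not taken to pair them. Alternatives were DESeq2 1.42.0, other normalizations and filters, a test against 1.2-fold, a replicate block and leaving out each library.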

Additional observations from a re-analysis of the deposited data

Results flagged for a closer look

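For 4 of the 10 genes, the log2 change over the second 12 h differed from that over the first in a test of the difference itself (edgeR quasi-likelihood contrast, adjusted over all genes tested). The difference was -0.36 for MCM2 (adjusted p = 0.0476), -0.44 for MCM3 (adjusted p = 0.0108), -0.51 for MCM5 (adjusted p = 0.00912) and -0.41 for CDT1 (adjusted p = 0.0413). Without 0 h replicate 1, which was below the other 0 h library in 10 of 10 genes, the values were smaller in size, at -0.25, -0.33, -0.38 and -0.29. A single library then stood for 0 h, so these calls depend on the 0 h group. The cause of the distance between the 0 h libraries was not tested.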

How the results depend on the processing

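The direction and side of the threshold of the 9 rises held under DESeq2, other size factors, upper-quartile normalization, other filters and the compared times alone. Against a fold of 1.2, 6 of the 10 genes passed at 12 h and 6 at 24 h. The number of the 10 genes past the test at 12 h was 9 when any single 12 h or 24 h library was left out, and 3 with 1.5-fold required. At 24 h it ranged from 8 to 9 under the same omissions. Leaving out a 0 h library leaves a single library there, and the changes then found are given above. Between 12 h and 24 h, where 1 passed, it was 3 with no low-count filter, 2 with a replicate block, 0 against a fold of 1.2, 0 with 1.5-fold required and 0 to 3 when single libraries were left out. The 1 that passed without 12 h replicate 1 was CDC6, lower by a log2 change of -0.19. The block changed no other comparison, since it could be fitted for the 12 h and 24 h libraries only. For the difference between the second and first 12 h, where 4 passed, it was 9 with no low-count filter, 0 against a fold of 1.2 and 0 with 1.5-fold required. It was 2 to 7 when single 12 h or 24 h libraries were left out, and the compared times alone could not be used. The CDC6 change at 24 h, -0.030, ranged from -0.085 to 0.026 when single libraries were left out and was positive (0.026) without the unnumbered 0 h library. The ORC1 change from 12 h to 24 h, -0.013, ranged from -0.059 to 0.023, and was 0.022 without 12 h replicate 1 and 0.023 without 24 h replicate 2. The cause of these shifts was not tested. With 2 libraries at 0 h, each comparison with 0 h rests on a pair of values. Counting error was at most 3.79%, so depth is not the limit for these genes.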
